A study of Mus musculus with 24 samples.

Results

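The first 4 h after activation were described here from 5 of the 24 RNA sequencing libraries of the series: 2 libraries of resting CD4+ T cells and 1 library each of Th0, Th1 and Th2 cultures taken 4 h after the start of stimulation. They were chosen by their labels alone, as the libraries of these time points. All cells came from the spleens of WT C57BL/6 mice, pooled before culture, and were enriched for CD4+ cells by magnetic negative selection. The labels describe purified CD4+ cells, whereas the methods speak of naive cells. Th0 cultures received anti-CD3 and anti-CD28, to which IL-12 with anti-IL-4 was added for Th1, and IL-4 with anti-IFN-γ and anti-IL-12 for Th2. Each culture was sequenced once. The labels call the resting libraries replicates but do not say that they came from separate mice. The error behind the p-values comes mostly from the spread between Th0, Th1 and Th2 cultures of the same time, over all times of the course, and to a small part from the spread between the resting libraries, which may be technical. Since the resting and cultured libraries differ in a tag in their titles, effects of activation, of being in culture and of separate preparation cannot be told apart.

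Engagement of the T cell receptor and CD28 is known to open several routes to the nucleus: calcium and calcineurin act on NFAT, the MAP kinases on the serum response factor and AP-1, and protein kinase C on NF-κB. The first wave of transcription needs no new protein and brings up transcription factors such as the Nr4a and Egr families. Cytokines, cytokine receptors and feedback inhibitors follow. Growth in size, with new ribosomes and a larger nucleolus, comes before the first division, while genes that keep the naive cell quiescent and recirculating are turned down.

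Values are RPKM, read counts scaled to the length of the gene and to the mapped reads of the library. The number of mapped reads recovered from the values was 19759130 and 23541990 at rest and 24357886, 22320726 and 19645055 in the Th0, Th1 and Th2 cultures. Changes are differences on the log2(RPKM + 0.5) scale, which understates the change of genes near 0. A gene was said to have risen or fallen when limma gave a change of 2-fold or more with a Benjamini-Hochberg adjusted p under 0.05. Of 10897 genes tested, 1152 (10.6%) passed this threshold: 284 (2.61%) rose and 868 (7.97%) fell. With quantile normalization, 551 rose and 716 fell, which shifts the split between the directions, and with the skewing condition as a factor, where rest is counted as Th0 so that the change is nearer to that of the Th0 cultures, 415 rose and 839 fell. With quantile normalization the median change over all genes moved from -0.04 to 0.06. All 3 cultures lay above both resting libraries for 2606 genes (23.9%) and below both for 3695 (33.9%). The resting libraries differed from each other with an SD of 0.18 over the log2 differences of these genes, the Th0 and Th1 cultures with 0.33, and the Th2 culture from the Th0 and Th1 cultures with 0.48 and 0.47.

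**Figure D1:**
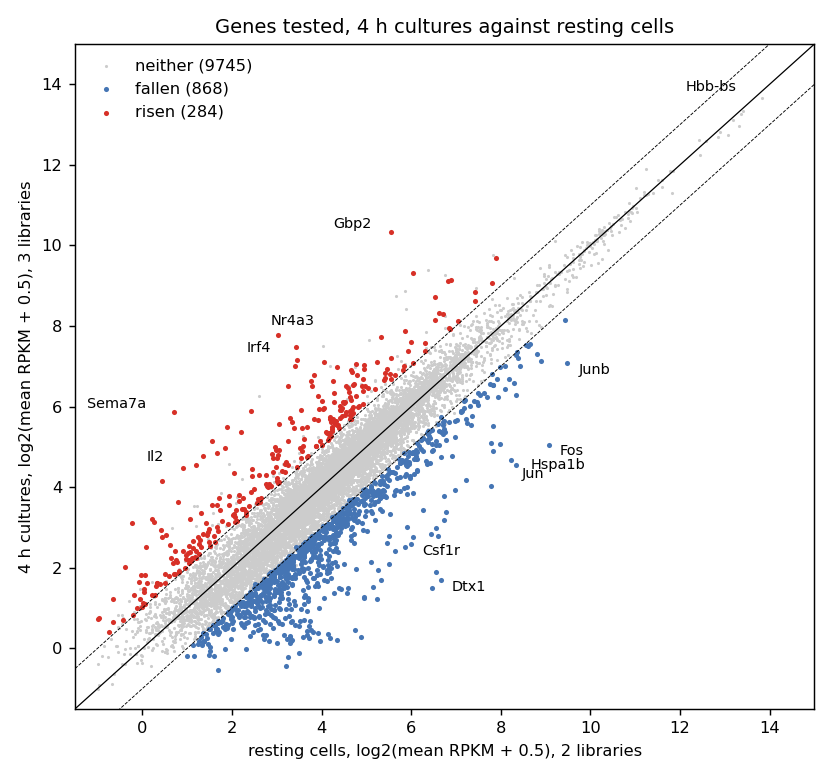
Mean level of each of 10897 tested genes in the 2 resting libraries (x axis) and in the 3 cultures at 4 h (y axis), both as log2(RPKM + 0.5), and the dashed lines mark a 2-fold difference. The 284 genes that rose (red) include Nr4a3, Irf4 and Sema7a, the 868 that fell (blue) include Fos, Jun and Dtx1, and the globin gene Hbb-bs lies near the diagonal.

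The label of a CD4+ T cell was checked against lists of marker genes. The 12 T cell markers measured summed to between 3491 and 3545 RPKM at rest and between 2663 and 2718 RPKM at 4 h. Cd4, the co-receptor for MHC class II, was at 328 and 326 RPKM at rest. The 8 markers of CD8 T cells summed to between 318 and 321 RPKM at rest and between 236 and 253 RPKM at 4 h, with Cd8a itself at 2.02 and 1.61 RPKM at rest, and the 20 NK cell markers to between 426 and 428 RPKM and between 280 and 488 RPKM. The resting cells also held transcripts of other spleen cells. The 52 measured markers of monocytes and macrophages summed to between 2315 and 2358 RPKM at rest, between 430 and 453 RPKM at 4 h, and between 116 and 155 RPKM at 24 h. Of 38 tested, 34 fell, with a median log2 change of -3.05. Csf1r, the receptor of the macrophage growth factor, went from 60.8 and 66.8 RPKM to 5.77, 3.94 and 6.76 RPKM. Red cell markers moved down to differing degrees, with a median log2 change of -0.98 and 0 of 30 tested above 0. All 3 cultures lay below both resting libraries for 25 of them, and 14 fell, among them the membrane protein gene Slc4a1. Hbb-bs, a β-globin gene, was at 13994 and 15013 RPKM at rest and 11779, 10067 and 16875 RPKM at 4 h. Of the B cell markers 9 of 25 fell, with a sum of 964 to 966 RPKM at rest and 448 to 554 RPKM at 4 h. Red cell markers summed to between 40828 and 44420 RPKM at rest and between 30373 and 48319 RPKM at 4 h. Of the markers on all lists, 1 red cell and 1 stromal gene were at 0 in all 5 libraries. In bulk RNA, fewer cells of a type and less RNA per cell cannot be told apart. These lists held 62 of the 868 genes that fell and 1 of the 284 that rose (Gzmk), and they are set aside below. Of the other 806 genes that fell, 188 had a mean at 24 h under 10% of that at rest and 250 had a mean of at least 50%. The part that transcripts of other cells have in those falls, or in the rises given below, was not tested.

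Of 12 tested members of the Nr4a and Egr list, 7 rose and 0 fell (median log2 change 1.18). The counts of this and the later lists stand against 2.61% risen and 7.97% fallen among all tested genes. The lists were chosen with earlier results of these data known, so these shares describe them and are no test of enrichment. Nr4a1, Nr4a2 and Nr4a3 are orphan nuclear receptors induced through calcium and MAP kinase signals, and Nr4a1 is widely used as a reporter of T cell receptor signal strength. Nr4a3 was at 7.09 and 8.23 RPKM at rest and 130.3, 195 and 327 RPKM at 4 h, in the order Th0, Th1 and Th2 (log2 change 4.64 ± 0.35 (SE), adjusted p = 4.93e-08). Nr4a1 was already at 112 and 113 RPKM at rest and reached 345, 451 and 875 RPKM (log2 change 2.19 ± 0.36 (SE), adjusted p = 0.000232). For both genes every culture lay above both resting libraries, and the Th2 culture was the highest. Egr2 and Egr3, zinc finger factors that restrain T cell activation and promote anergy, were at 8.82 and 9.23 RPKM at rest and 59.5, 80.5 and 134 RPKM at 4 h and at 5.40 and 4.41 RPKM at rest and 40.8, 47 and 89.9 RPKM at 4 h (3.19 ± 0.35 and 3.38 ± 0.27 SE on the log2 scale). Nr4a2 (2.39 ± 0.37), Egr1 (1.22 ± 0.28) and Nab2, a co-repressor of the Egr factors (1.13 ± 0.24), rose as well. Ier2 and Srf, the serum response factor itself, did not pass, and Ier2 was at 122 and 128 RPKM at rest and 60.4, 71 and 119 RPKM at 4 h. Egr1 and Nab2 lost their calls without the Th2 culture (log2 change 0.96 and 0.92).

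The genes with the largest rises among the lists of transcription factors and cytokines were Nr4a3, Irf4, Egr3, Il2 and Il13. Egr3 had no entry in the RefSeq promoter table of GRCm38.p6. The 250 bases before the transcription start of the other 4 genes, from that table, are shown because they had the largest rises on those lists. Each is written 5′ to 3′ on the gene's strand, and capitals mark matches to the motifs searched. Nr4a3 lies on the plus strand at chr4:48045055-48045304, Irf4 on the plus strand at chr13:30748983-30749232, Il2 on the minus strand at chr3:37125955-37126204 and Il13 on the minus strand at chr11:53634703-53634952.
Nr4a3: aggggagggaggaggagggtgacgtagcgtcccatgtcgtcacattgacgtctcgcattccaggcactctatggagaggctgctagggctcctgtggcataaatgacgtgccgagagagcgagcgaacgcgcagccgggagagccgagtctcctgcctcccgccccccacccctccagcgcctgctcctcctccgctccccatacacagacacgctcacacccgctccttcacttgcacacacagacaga
Irf4: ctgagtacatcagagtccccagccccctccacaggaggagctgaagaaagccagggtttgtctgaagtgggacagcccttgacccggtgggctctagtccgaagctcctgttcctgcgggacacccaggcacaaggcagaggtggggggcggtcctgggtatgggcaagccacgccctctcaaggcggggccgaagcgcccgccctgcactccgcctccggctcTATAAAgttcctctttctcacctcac
Il2: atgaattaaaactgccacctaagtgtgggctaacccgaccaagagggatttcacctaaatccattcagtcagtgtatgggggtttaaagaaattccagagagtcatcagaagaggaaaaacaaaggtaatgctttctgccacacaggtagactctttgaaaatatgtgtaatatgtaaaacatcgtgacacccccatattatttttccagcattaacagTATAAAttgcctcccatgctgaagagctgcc
Il13: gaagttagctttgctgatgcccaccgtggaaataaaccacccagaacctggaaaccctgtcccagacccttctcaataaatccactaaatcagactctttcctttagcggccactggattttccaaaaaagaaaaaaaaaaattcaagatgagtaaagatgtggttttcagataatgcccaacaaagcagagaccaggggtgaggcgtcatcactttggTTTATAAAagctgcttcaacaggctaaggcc

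Both strands were searched for TGANTCA (bound by AP-1), TGACGTCA (the cyclic AMP response element), GGGANTTTC (bound by NF-κB), the CArG box (bound by the serum response factor), CACGTG (the E-box) and TATAAA (the TATA box). TATAAA was found in the windows of Irf4, Il2 and Il13, in Il13 on both strands with overlapping letters, and no motif was found in these letters before Nr4a3. Over all 32851 promoters of the table, 12.4% held TATAAA within the same 250 bases, 6.75% TGANTCA, 1.55% TGACGTCA, 0.941% GGGANTTTC, 1.47% the CArG box and 6.02% CACGTG. Of the 305 promoters of 228 genes that rose, 7.87% held TATAAA, 6.23% TGANTCA, 2.95% TGACGTCA, 0.984% GGGANTTTC, 1.64% the CArG box and 7.87% CACGTG. For the 10564 promoters of genes tested the shares were 6.12%, 4.17%, 2.66%, 0.824%, 1.09% and 8.49% in the same order. A match in these windows is a description of the letters and not a bound site.

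The AP-1 family split. Of 13 members tested, 3 rose and 4 fell (median log2 change -0.26, and -0.43 without the Th2 culture and -0.16 without the Th0 culture). Fos, the partner of Jun in AP-1, was at 531 and 551 RPKM at rest and 28.8, 27.5 and 42.1 RPKM at 4 h (log2 change -4.05 ± 0.24 (SE), adjusted p = 3.38e-09), Jun at 300.2 and 296 RPKM at rest and 27, 32.1 and 16.4 RPKM at 4 h (log2 change -3.59 ± 0.65 (SE), adjusted p = 0.000502) and Junb at 693 and 741 RPKM at rest and 104, 113 and 189 RPKM at 4 h (log2 change -2.45 ± 0.26 (SE), adjusted p = 2.67e-06). Fosb went from 65.3 and 66.1 RPKM to 6.49, 5.78 and 6.51 RPKM (-3.29 ± 0.17 on the log2 scale). No culture reached either resting library for these genes. The part of tissue handling in these falls was not tested. Fosl2, which encodes the Fos relative Fra-2, moved the other way, from 3.89 and 4.30 RPKM to 30.4, 41.2 and 50.4 RPKM (log2 change 3.13 ± 0.26 (SE), adjusted p = 2.16e-07), and Fosl1 rose from a low level, 0.623 and 0.473 RPKM, to 1.59, 2.60 and 4.95 RPKM (1.65 ± 0.41). Bach2, a repressor that competes with AP-1 at its sites, rose from 24.3 and 24.7 RPKM to 70.5, 51.2 and 42.2 RPKM (1.11 ± 0.17), highest in the Th0 culture. Atf3, a stress-induced member, was at 7.35 and 7.46 RPKM at rest and 12, 8.84 and 70.2 RPKM at 4 h and did not pass (log2 change 1.35 ± 0.81 (SE), adjusted p = 0.223), with the Th2 culture far above the other cultures. Fosl1 lost its call without resting library 2 (log2 change 1.55). Bach2 lost its call without the Th0 culture (log2 change 0.91). Atf3 passed with skewing as a factor (log2 change 1.11).

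**Figure D2:**
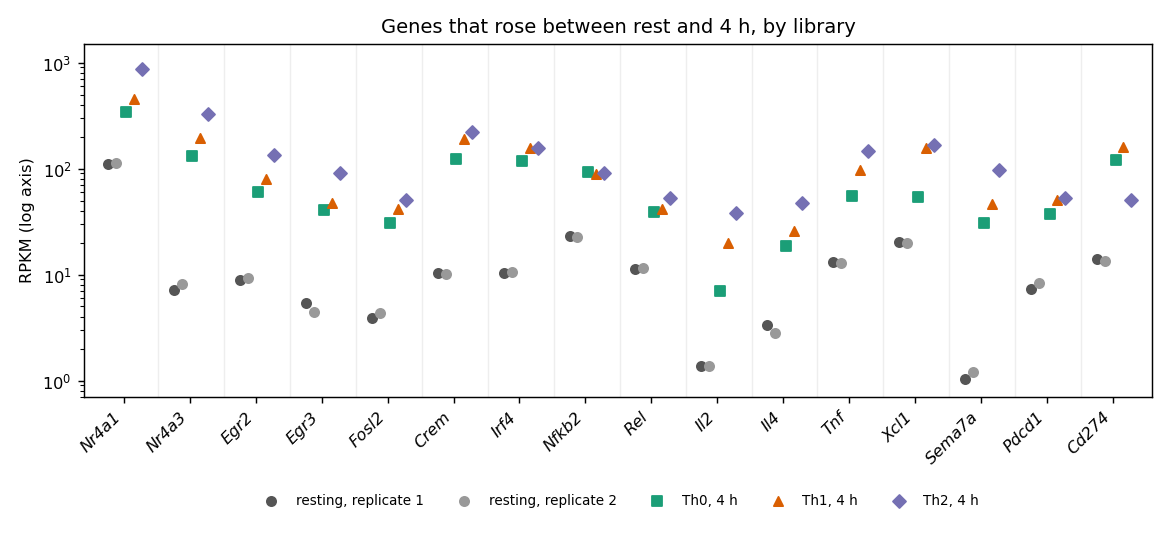
Level of 16 genes that rose, in RPKM on a log axis, with 1 point per library (circles resting, square Th0, triangle Th1, diamond Th2). The cultures lie above both resting libraries for each gene. For Nr4a1, Nr4a3, Egr2, Egr3, Il2 and Tnf they lie in the order Th0, Th1, Th2, and for Cd274 the Th2 culture is the lowest.

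Of 14 members of the NF-κB list tested, 8 rose and 1 fell (median log2 change 1.26). Nfkb2, the precursor of p52, was at 23.1 and 22.6 RPKM at rest and 92.4, 89.3 and 91.7 RPKM at 4 h, and Relb, its partner in the non-canonical pathway, at 15.5 and 16.4 RPKM at rest and 61.6, 59.1 and 62 RPKM at 4 h, with the 3 cultures nearly level for both (1.97 ± 0.14 and 1.90 ± 0.14 on the log2 scale). Rel, the c-Rel subunit needed for Il2 transcription, was at 11.3 and 11.4 RPKM at rest and 38.9, 41.2 and 52.3 RPKM at 4 h (log2 change 1.90 ± 0.18 (SE), adjusted p = 8.15e-07), and Nfkb1 rose by 1.67 ± 0.26. The atypical inhibitors Nfkbid (1.91 ± 0.30) and Bcl3 (1.22 ± 0.42), the inhibitor Nfkbib (1.30 ± 0.18) and Tnip2 (1.39 ± 0.18), a binding partner of the A20 enzyme, rose as well. Tnfaip3, which encodes A20 itself, fell from 317 and 324 RPKM to 173, 112 and 178 RPKM (log2 change -1.09 ± 0.22 (SE), adjusted p = 0.00117). Nfkbia, the classical inhibitor of NF-κB, was at 165 and 173 RPKM at rest and 166, 157 and 174 RPKM at 4 h and was not past the threshold. Bcl3 lost its call without resting library 1, without resting library 2 or without the Th0 culture (log2 change 1.07, 1.36 and 1.19). Bcl3 and Tnfaip3 lost their calls without the Th1 culture (log2 change 1.16 and -0.87). Tnfaip3 lost its call with skewing as a factor (log2 change -0.93).

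Among 11 members of the NFAT list 1 rose and 1 fell, against 2.61% and 7.97% of all tested genes. Orai1, the pore of the store-operated calcium channel, rose from 15.2 and 17 RPKM to 50.1, 44.7 and 91.7 RPKM (log2 change 1.84 ± 0.27 (SE), adjusted p = 8.52e-05), and Nfatc2, the NFAT protein of resting T cells, fell from 18.7 and 18.6 RPKM to 7.76, 6.59 and 7.55 RPKM (-1.30 ± 0.20). Nfatc1 was at 36.2 and 39 RPKM at rest and 45.7, 48.6 and 68.2 RPKM at 4 h. Of 8 interferon regulatory factors, Irf4, which scales with T cell receptor signalling and supports growth and effector fates, rose from 10.4 and 10.5 RPKM to 118, 157 and 155 RPKM (log2 change 3.70 ± 0.24 (SE), adjusted p = 1.14e-08). The Th0 culture was the lowest, and the mean was 224 RPKM at 8 h and 274 RPKM at 24 h. Irf1 was at 175 and 174 RPKM at rest and 643, 592 and 232 RPKM at 4 h and Irf8 at 24.7 and 23.2 RPKM at rest and 75.2, 129 and 65.9 RPKM at 4 h. Neither passed (1.35 ± 0.95 and 1.83 ± 0.84), and both were lowest in the Th2 culture. Irf8 also stands on the marker list of dendritic cells, and the part of those cells was not tested. Irf1 and Irf8 passed in a fit of the 5 libraries alone (log2 change 1.35 and 1.83). Irf1 and Irf8 passed with skewing as a factor (log2 change 2.16 and 2.05).

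Of 19 cytokine genes tested, 8 rose and 0 fell (median log2 change 0.97, and 1.51 without the Th0 culture and 0.62 with skewing as a factor). Il2, the autocrine growth factor of T cells, was at 1.37 and 1.37 RPKM at rest and 7.07, 19.8 and 38.2 RPKM at 4 h (log2 change 3.27 ± 0.52 (SE), adjusted p = 0.00015). Il4, the Th2 cytokine, was at 3.32 and 2.81 RPKM at rest and 18.7, 25.9 and 47.4 RPKM at 4 h (log2 change 3.02 ± 0.54 (SE), adjusted p = 0.000427), and Il13, its neighbour in the same gene cluster, at 0.168 and 0.529 RPKM at rest and 3.95, 7.73 and 12.8 RPKM at 4 h (3.25 ± 0.42). In all 3 genes the Th0 culture was the lowest and the Th2 culture the highest, and each lay above both resting libraries. Tnf was at 13.2 and 13 RPKM at rest and 55.7, 96.2 and 147 RPKM at 4 h (log2 change 2.77 ± 0.43 (SE), adjusted p = 0.000125), and Csf2, the gene of GM-CSF, at 0.696 and 0.637 RPKM at rest and 2.98, 6.38 and 17.1 RPKM at 4 h (2.68 ± 0.60). Lif (2.83 ± 0.45), Il6 (1.78 ± 0.35) and Il3 rose too. Il3 was at 0 and 0.270 RPKM at rest and 0.979, 2.21 and 2.27 RPKM at 4 h, so its fold change is not given. Il5 was listed at 0 in both resting libraries and was at 1.26, 1.17 and 2.42 RPKM at 4 h, and it stayed under the filter on low values. Ifng, the Th1 cytokine, was at 29.7 and 28.5 RPKM at rest and 14.9, 206 and 60.5 RPKM at 4 h and did not pass (log2 change 0.97 ± 1.34 (SE), adjusted p = 0.622). The Th1 culture was above and the Th0 culture below both resting libraries for Ifng. Over the 19 genes, the Th0 culture was the lowest in 17 and the Th2 culture the highest in 14. Over all 10897 tested genes, the Th0 culture was the lowest in 2985 and the Th2 culture the highest in 4075 (37.4%).

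Of 12 chemokines 3 rose and of 8 TNF family ligands 4 rose, with 0 falls in either list. Xcl1, the ligand of the receptor on cross-presenting dendritic cells, was at 20.1 and 19.8 RPKM at rest and 53.9, 158 and 166 RPKM at 4 h (log2 change 2.46 ± 0.42 (SE), adjusted p = 0.000331). Ccl4 was at 20.2 and 23.4 RPKM at rest and 28.6, 72.7 and 106 RPKM at 4 h (1.46 ± 0.51) and Ccl1, a ligand of CCR8, at 0.824 and 0.288 RPKM at rest and 2.45, 4.11 and 8.96 RPKM at 4 h (2.31 ± 0.45). Cxcl10, an interferon-induced chemokine, was at 4.35 and 6.82 RPKM at rest and 60.8, 156 and 11.5 RPKM at 4 h and did not pass (log2 change 3.03 ± 1.53 (SE), adjusted p = 0.144), with a wide spread among the cultures. Tnfsf8, the CD30 ligand, was at 16.4 and 15 RPKM at rest and 59.3, 43 and 106 RPKM at 4 h (2.01 ± 0.41), and Tnfsf11, which encodes RANKL, at 8.22 and 7.39 RPKM at rest and 13.8, 24.5 and 50.9 RPKM at 4 h (1.67 ± 0.48). Tnfsf4, the OX40 ligand (1.63 ± 0.35), and Fasl (1.11 ± 0.35) rose from 0.495 and 0.415 RPKM and 7.35 and 5.44 RPKM. Cd40lg, the helper ligand for B cells, was at 60 and 64.2 RPKM at rest and 53.4, 85.1 and 139 RPKM at 4 h, without a call. Ccl4, Tnfsf11 and Fasl lost their calls without resting library 1 (log2 change 1.35, 1.74 and 1.31). Ccl4, Tnfsf11 and Fasl lost their calls without resting library 2 (log2 change 1.56, 1.60 and 0.91). Ccl4 lost its call without the Th1 culture (log2 change 1.32). Ccl4, Tnfsf11 and Fasl lost their calls without the Th2 culture (log2 change 1.05, 1.19 and 0.73). Ccl4 and Fasl lost their calls in a fit of the 5 libraries alone (log2 change 1.46 and 1.11). Fasl lost its call with skewing as a factor (log2 change 0.95). Ccl4 lost its call with no filter (log2 change 1.46). Cxcl10 passed in a fit of the 5 libraries alone or with skewing as a factor (log2 change 3.03 and 3.61).

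Receptors for these signals rose in part. Of 23 cytokine receptors 4 rose and 1 fell, and of 14 TNF receptors 5 rose and 0 fell. Il2ra, the high-affinity chain of the IL-2 receptor, was at 19.6 and 18.1 RPKM at rest and 50.5, 72.8 and 118 RPKM at 4 h (log2 change 1.98 ± 0.30 (SE), adjusted p = 0.000104). Il4ra, the IL-4 receptor chain, was at 39 and 40.1 RPKM at rest and 225, 48.1 and 363 RPKM at 4 h (log2 change 1.99 ± 0.70 (SE), adjusted p = 0.0397), and its Th1 culture stayed near the resting level. Ifngr1 was at 88.6 and 95.1 RPKM at rest and 466, 437 and 368 RPKM at 4 h (log2 change 2.19 ± 0.50 (SE), adjusted p = 0.00281), with all cultures far above rest, and its mean was 37.8 RPKM at 24 h. The decoy receptor Il1r2 rose (1.37 ± 0.24), and Il27ra fell from 79.7 and 83.5 RPKM to 42.8, 31.7 and 32.4 RPKM (-1.20 ± 0.15). Il7r, which passes the survival signal of naive cells, was at 108 and 107 RPKM at rest and 280.0, 327 and 133 RPKM at 4 h and did not pass (1.09 ± 0.76). Tnfrsf9, which encodes 4-1BB, was at 19.4 and 18 RPKM at rest and 69.6, 92.6 and 133 RPKM at 4 h and Tnfrsf4, which encodes OX40, at 25 and 28.9 RPKM at rest and 105, 95.7 and 198 RPKM at 4 h (2.32 ± 0.34 and 2.21 ± 0.26). Tnfrsf26 (1.98 ± 0.46), Tnfrsf18, known as GITR (1.36 ± 0.21), and Tnfrsf1b (1.16 ± 0.24) rose too. Il4ra lost its call without resting library 1, without resting library 2, without the Th0 culture, without the Th2 culture, in a fit of the 5 libraries alone or with no filter (log2 change 1.97, 2.01, 1.73, 1.39, 1.99 and 1.99). Il7r passed with skewing as a factor (log2 change 1.73).

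Costimulatory and inhibitory molecules moved in both directions. Of 13 costimulatory and SLAM family genes, Icos and Slamf1 rose and Cd226, Cd48, Ly9 and Cd84 fell. Icos, a CD28 relative that supports helper function, was at 30.2 and 28.9 RPKM at rest and 83.1, 78.1 and 110.5 RPKM at 4 h (log2 change 1.58 ± 0.14 (SE), adjusted p = 3.10e-07), and Slamf1 at 11.3 and 11 RPKM at rest and 32, 48 and 98.2 RPKM at 4 h (2.21 ± 0.36). Cd48, the ligand of 2B4, went from 115 and 114 RPKM to 44.9, 47.1 and 53.5 RPKM (-1.24 ± 0.19). The falls of Cd226 (-1.07 ± 0.26), Cd84 (-1.10 ± 0.28) and Ly9 (-1.0 ± 0.09) were close to the 2-fold limit. Cd69, the activation marker that is often the first at the surface, was at 187 and 179 RPKM at rest and 184, 291 and 346 RPKM at 4 h and was not called. Of 11 inhibitory receptors and ligands 4 rose and 2 fell. Pdcd1, which encodes PD-1, was at 7.30 and 8.35 RPKM at rest and 36.9, 50.7 and 53 RPKM at 4 h (log2 change 2.49 ± 0.28 (SE), adjusted p = 6.33e-06), and its ligand Cd274, which encodes PD-L1, at 14.2 and 13.5 RPKM at rest and 121, 159 and 50.5 RPKM at 4 h (log2 change 2.79 ± 0.34 (SE), adjusted p = 1.15e-05), lowest in the Th2 culture. Tigit (1.80 ± 0.36) and Pdcd1lg2 (1.14 ± 0.31) rose, whereas Cd200r1 (-1.27 ± 0.25) and Lag3 (-1.06 ± 0.31) fell. Lag3 was at 8.04 and 8.30 RPKM at rest and 3.92, 2.68 and 4.57 RPKM at 4 h and at a mean of 48.8 RPKM at 24 h. Ctla4, the competitor of CD28, was at 62.8 and 56.7 RPKM at rest and 56.6, 68.3 and 88.6 RPKM at 4 h and did not pass (0.23 ± 0.24). Cd84, Ly9 and Lag3 lost their calls without resting library 1 (log2 change -1.08, -0.98 and -1.09). Pdcd1lg2 and Lag3 lost their calls without resting library 2 (log2 change 1.05 and -1.04). Cd84 lost its call without the Th0 culture (log2 change -0.99). Ly9 and Lag3 lost their calls without the Th1 culture (log2 change -1.0 and -0.87). Cd226 and Cd84 lost their calls without the Th2 culture (log2 change -0.95 and -0.99). Cd226, Ly9 and Lag3 lost their calls with median-of-ratios scaling (log2 change -0.99, -0.93 and -0.99). Ly9 lost its call with upper-quartile scaling (log2 change -0.94). Lag3 lost its call with quantile normalization (log2 change -0.88). Cd226, Ly9 and Pdcd1lg2 lost their calls with skewing as a factor (log2 change -0.99, -1.0 and 0.98). Ly9, Pdcd1lg2 and Lag3 lost their calls with a pseudocount of 1 (log2 change -0.99, 0.98 and -0.98).

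Of 22 genes of the T cell receptor complex and proximal signalling 1 rose and 3 fell (median log2 change -0.15, between -0.30 and -0.07 over the alternatives). Cd4 fell from 328 and 326 RPKM to 186, 191 and 111 RPKM (log2 change -1.04 ± 0.21 (SE), adjusted p = 0.00104). Themis, an adaptor of thymocyte selection, fell from 53.6 and 53.3 RPKM to 20.3, 18.6 and 17.1 RPKM (-1.5 ± 0.22). Ptpn22, a phosphatase that restrains the Src family kinases, rose from 78.1 and 79.7 RPKM to 126, 163 and 210.4 RPKM (1.04 ± 0.23). Cd3e was at 187 and 194 RPKM at rest and 131, 126 and 136 RPKM at 4 h and did not reach a 2-fold change (log2 change -0.54 ± 0.15 (SE), adjusted p = 0.011). Cd4 and Ptpn22 lost their calls without the Th2 culture (log2 change -0.79 and 0.86). Cd4 lost its call with median-of-ratios scaling or with upper-quartile scaling (log2 change -0.97 and -0.99). Cd4 and Ptpn22 lost their calls with skewing as a factor (log2 change -0.93 and 0.92).

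Of 20 feedback genes tested, 8 rose and 2 fell (median log2 change 0.57, and 0.95 with quantile normalization). Socs1, an inhibitor of the Janus kinases, was at 15.2 and 16.8 RPKM at rest and 159, 75.3 and 179.6 RPKM at 4 h (log2 change 2.98 ± 0.36 (SE), adjusted p = 1.25e-05), and Cish, a target of STAT5, at 14.6 and 14.9 RPKM at rest and 63.6, 39.3 and 127 RPKM at 4 h (log2 change 2.17 ± 0.49 (SE), adjusted p = 0.00285). Both were lowest in the Th1 culture, and all cultures lay above both resting libraries. Pim2, a survival kinase, was at 24.7 and 25.8 RPKM at rest and 133, 135 and 76.2 RPKM at 4 h (2.11 ± 0.40) and Pim1 at 117 and 112 RPKM at rest and 275, 225 and 239 RPKM at 4 h (1.10 ± 0.14). Cblb, a ubiquitin ligase that sets the need for costimulation, was at 23.7 and 23.9 RPKM at rest and 83.1, 83.4 and 78.6 RPKM at 4 h (1.76 ± 0.17), level across the cultures. Spry1 (1.41 ± 0.43), Dusp4 (1.06 ± 0.30) and Dusp14 (1.01 ± 0.30) rose, whereas Dusp1, given with the heat shock genes, and Spry2 (-1.11 ± 0.27) fell. Among 14 RNA-binding regulators of mRNA decay, Zfp36 and Zfp36l2, which direct the decay of cytokine mRNA, fell from 300.1 and 324 RPKM to 96.1, 89.5 and 99.6 RPKM (-1.71 ± 0.18) and from 222 and 229.6 RPKM to 96.6, 121 and 58.8 RPKM (-1.35 ± 0.26), and Zc3h12d rose (1.31 ± 0.23). Spry1, Dusp4 and Dusp14 lost their calls without resting library 1 (log2 change 1.36, 1.07 and 0.82). Spry1, Dusp4 and Spry2 lost their calls without resting library 2 (log2 change 1.45, 1.05 and -0.96). Dusp14 and Spry2 lost their calls without the Th0 culture (log2 change 0.99 and -0.88). Spry1, Dusp4 and Dusp14 lost their calls without the Th2 culture (log2 change 1.03, 0.85 and 0.80). Spry2 lost its call with quantile normalization (log2 change -0.92). Dusp4 and Dusp14 lost their calls with skewing as a factor (log2 change 0.79 and 0.84). Dusp14 lost its call with a pseudocount of 1 (log2 change 0.78).

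Some transcripts that are known to respond to stress and to handling of tissue fell, whereas Atf3, given above as stress-induced, was not called. The part of handling in these falls, in that of Zfp36 above and in those of Klf4 and Klf6 below, was not tested. Hspa1a and Hspa1b, near-identical genes of the inducible HSP70 whose reads the counting could split, were at 218 and 221 RPKM at rest and 15.2, 13.1 and 19.4 RPKM at 4 h and at 322 and 329 RPKM at rest and 22.4, 18.4 and 27.6 RPKM at 4 h (log2 change -3.83 ± 0.20 (SE), adjusted p = 6.93e-10 for Hspa1b). Dnajb1, an HSP40 co-chaperone, went from 152 and 151 RPKM to 50.2, 43.5 and 49.4 RPKM (-1.66 ± 0.10), and Bag3 fell too (-1.30 ± 0.17). Of 22 heat shock chaperones these 4 fell and 0 rose. Dusp1, a phosphatase of the MAP kinases, went from 218 and 234 RPKM to 29.6, 28.5 and 30 RPKM (log2 change -2.92 ± 0.17 (SE), adjusted p = 2.41e-09). For each of these genes that fell the 3 cultures were close together and far below both resting libraries.

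**Figure D3:**
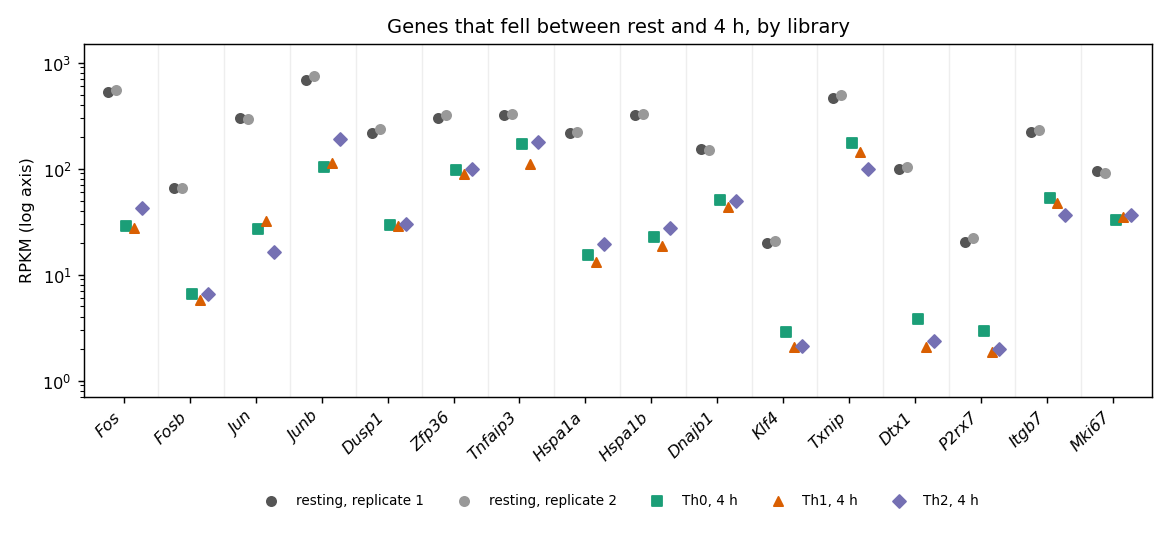
Level of 16 genes that fell, in RPKM on a log axis, with 1 point per library (circles resting, square Th0, triangle Th1, diamond Th2). All cultures lie below both resting libraries, with the widest gaps for Dtx1, Fos, Hspa1b and Hspa1a.

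Genes of the naive and quiescent state were mixed at 4 h. Dtx1, the Notch pathway ubiquitin ligase Deltex1, had the largest fall outside the marker lists, from 99 and 103 RPKM to 3.82, 2.07 and 2.38 RPKM (log2 change -5.00 ± 0.22 (SE), adjusted p = 1.70e-10), while Rbpj, the DNA-binding partner of Notch, rose from 12.1 and 12.4 RPKM to 19.4, 23.6 and 36.1 RPKM (1.03 ± 0.33). Of 23 quiescence genes 4 fell and 2 rose. Klf4 went from 19.8 and 20.9 RPKM to 2.86, 2.06 and 2.10 RPKM (-2.89 ± 0.28), and Txnip, an inhibitor of glucose uptake, from 461 and 490.0 RPKM to 175, 145 and 100.2 RPKM (-1.80 ± 0.44). Tsc22d3 (-1.30 ± 0.47) and Klf6 (-1.35 ± 0.50) fell with adjusted p = 0.0456 and 0.0496. The quiescence genes Slfn1 and Slfn2 of the Schlafen family rose (1.61 ± 0.47 and 1.41 ± 0.15), from 179.6 and 163 RPKM to 418, 436 and 522 RPKM for Slfn2. Among 16 naive-state transcription factors, Zeb1 (1.48 ± 0.21), Satb1 (1.14 ± 0.39) and Bach2 rose, and Elf4 (-1.19 ± 0.18) and Id2 (-1.19 ± 0.32) fell. Rbpj, Tsc22d3, Klf6, Slfn1, Satb1 and Id2 lost their calls without resting library 1 (log2 change 1.01, -1.33, -1.33, 1.60, 1.11 and -1.19). Rbpj, Tsc22d3, Klf6, Slfn1, Satb1 and Id2 lost their calls without resting library 2 (log2 change 1.04, -1.27, -1.36, 1.63, 1.18 and -1.18). Klf6, Satb1 and Id2 lost their calls without the Th0 culture (log2 change -1.45, 1.05 and -1.0). Tsc22d3 lost its call without the Th1 culture (log2 change -1.23). Rbpj, Tsc22d3, Klf6 and Satb1 lost their calls without the Th2 culture (log2 change 0.78, -1.19, -1.0 and 0.97). Tsc22d3 and Klf6 lost their calls with median-of-ratios scaling (log2 change -1.22 and -1.27). Tsc22d3 and Klf6 lost their calls with upper-quartile scaling (log2 change -1.24 and -1.29). Rbpj and Tsc22d3 lost their calls with skewing as a factor (log2 change 0.71 and -0.67). Tsc22d3 and Klf6 lost their calls with no filter (log2 change -1.30 and -1.35). Tsc22d3 and Klf6 lost their calls with a filter at 5 RPKM (log2 change -1.30 and -1.35). Tsc22d3 and Klf6 lost their calls with a pseudocount of 0.1 (log2 change -1.30 and -1.35). Klf6 lost its call with no trend or with the marker genes left out (log2 change -1.35 and -1.34).

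The list of homing and egress receptors also holds a channel gene, P2rx7. Of its 16 members 5 fell and 0 rose, against 7.97% and 2.61% of all tested genes. P2rx7, an ATP-gated channel, went from 20.2 and 22.1 RPKM to 2.95, 1.87 and 1.97 RPKM (log2 change -2.99 ± 0.26 (SE), adjusted p = 3.03e-07), and Itgb7, the integrin chain for gut homing, from 223 and 231 RPKM to 53, 47.2 and 36.7 RPKM (log2 change -2.32 ± 0.60 (SE), adjusted p = 0.00713). The LFA-1 chains Itgb2 (-1.31 ± 0.16) and Itgal (-1.05 ± 0.17) and the chemokine receptor Ccr6 (-1.04 ± 0.26) fell too. Macrophage transcripts, which carry Itgb2 too, fell beside them, and their part in the falls of this list was not tested. Neither of 2 receptors that guide naive cells in circulation was called: Ccr7, for entry to lymph nodes, was at 124 and 130.5 RPKM at rest and 157, 186 and 118 RPKM at 4 h and S1pr1, the egress receptor, at 132 and 135 RPKM at rest and 126, 157 and 123 RPKM at 4 h (0.24 ± 0.20 and 0.01 ± 0.57). Klf2, the factor that drives S1pr1, was at 158 and 185 RPKM at rest and 209, 144 and 124 RPKM at 4 h (-0.14 ± 0.54). At 24 h the means were 17 RPKM for Klf2, 12.4 for S1pr1 and 336 for Ccr7. Ccr6 lost its call without resting library 1 (log2 change -0.90). Itgb7 lost its call without resting library 2 (log2 change -2.29). Ccr6 lost its call without the Th2 culture (log2 change -0.81). Itgal and Ccr6 lost their calls with median-of-ratios scaling (log2 change -0.97 and -0.98). Itgal and Ccr6 lost their calls with upper-quartile scaling (log2 change -0.99 and -1.0). Ccr6 lost its call with quantile normalization or with a pseudocount of 1 (log2 change -0.67 and -0.84).

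Transcripts of dividing cells were higher at rest than at 4 h. Of 20 mitosis genes 13 fell and 0 rose (median log2 change -1.08), and of 29 genes of DNA replication 7 fell and 0 rose (median -0.66). Mki67, the proliferation marker Ki-67, was at 94 and 91.8 RPKM at rest and 32.8, 34.9 and 36.8 RPKM at 4 h (log2 change -1.40 ± 0.20 (SE), adjusted p = 5.66e-05), and Bub1b, a spindle checkpoint kinase, at 16.6 and 18.1 RPKM at rest and 6.51, 5.82 and 5.57 RPKM at 4 h (-1.47 ± 0.18). Ccnb1 (-1.41 ± 0.22), Rrm2, a subunit of ribonucleotide reductase (-1.23 ± 0.22), and Mcm10 (-1.61 ± 0.24) fell too. Among 18 genes of the G1 phase, Cdkn1a, which encodes the inhibitor p21, rose from 1.20 and 2.37 RPKM to 15.2, 26.5 and 27 RPKM (log2 change 3.36 ± 0.31 (SE), adjusted p = 5.89e-07), and Ccne1 (-1.25 ± 0.21), Ccne2 (-1.49 ± 0.27), E2f2 (-1.22 ± 0.23) and Cdkn2d (-1.15 ± 0.36) fell. The precursors of red cells divide, and the erythroid marker Slc4a1 fell over the same interval, from 444 and 459 RPKM to 153, 137 and 184 RPKM. Its part in the falls of division genes was not tested. Cdkn2d lost its call without resting library 1, without resting library 2, without the Th1 culture or with skewing as a factor (log2 change -1.13, -1.17, -1.12 and -0.91).

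Several lists of growth and metabolism had few or 0 calls at 4 h. None of 26 translation initiation factors, 25 proteasome subunits, 8 TRiC subunits, 12 polyamine genes, 20 sterol and fatty acid genes, 35 cytosolic ribosomal proteins or 33 subunits of oxidative phosphorylation passed in limma, and 1 of 42 ribosome biogenesis genes did, a fall of Ubtf (-1.60 ± 0.22). Their medians ran from -0.04 for oxidative phosphorylation, between -0.13 and 0.05 over the alternatives, to 0.40 for the proteasome, whose 25 subunits all had a change above 0. The median of the ribosome biogenesis list was 0.28, and -0.02 without the Th2 culture. Myc, the driver of growth, was at 40.3 and 43.9 RPKM at rest and 52.2, 73.1 and 157 RPKM at 4 h and did not pass (log2 change 1.00 ± 0.41 (SE), adjusted p = 0.0723), with the Th2 culture above the others, and its mean was 178 RPKM at 8 h and 257 RPKM at 24 h. Mxd1, its antagonist, rose (1.26 ± 0.32). Nop56, a core protein of box C/D snoRNPs, was at 171 and 183 RPKM at rest and 202, 215 and 425 RPKM at 4 h, without a call, and at a mean of 658 RPKM at 24 h. Of 23 serine, one-carbon and nucleotide genes 1 rose and 2 fell, and of 14 amino acid and glucose transporters 1 rose and 1 fell. Of 19 glycolysis genes 0 rose and 2 fell. These lists lay near the share of all tested genes that were called, 10.6%. Shmt1, of one-carbon metabolism, rose from 6.30 and 8.18 RPKM to 14.8, 24.4 and 54.5 RPKM (1.84 ± 0.40). Slc16a3, a lactate exporter, rose (1.39 ± 0.26), and Asns, asparagine synthetase, fell from 18.2 and 17.3 RPKM to 5.50, 5.79 and 7.60 RPKM (-1.44 ± 0.24). Wars, the only tRNA synthetase of 20 to rise, is also induced by interferon-γ and was at 25.2 and 24.6 RPKM at rest and 77.3, 95.5 and 39.9 RPKM at 4 h (1.40 ± 0.35). Of 21 autophagy and lysosome genes 3 fell, among them the cathepsins Ctsb (-1.80 ± 0.17) and Ctsd (-1.5 ± 0.16), which macrophages also carry. Mxd1 lost its call without resting library 1 (log2 change 1.23). Myc passed without the Th0 culture (log2 change 1.34).

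**Figure D4:**
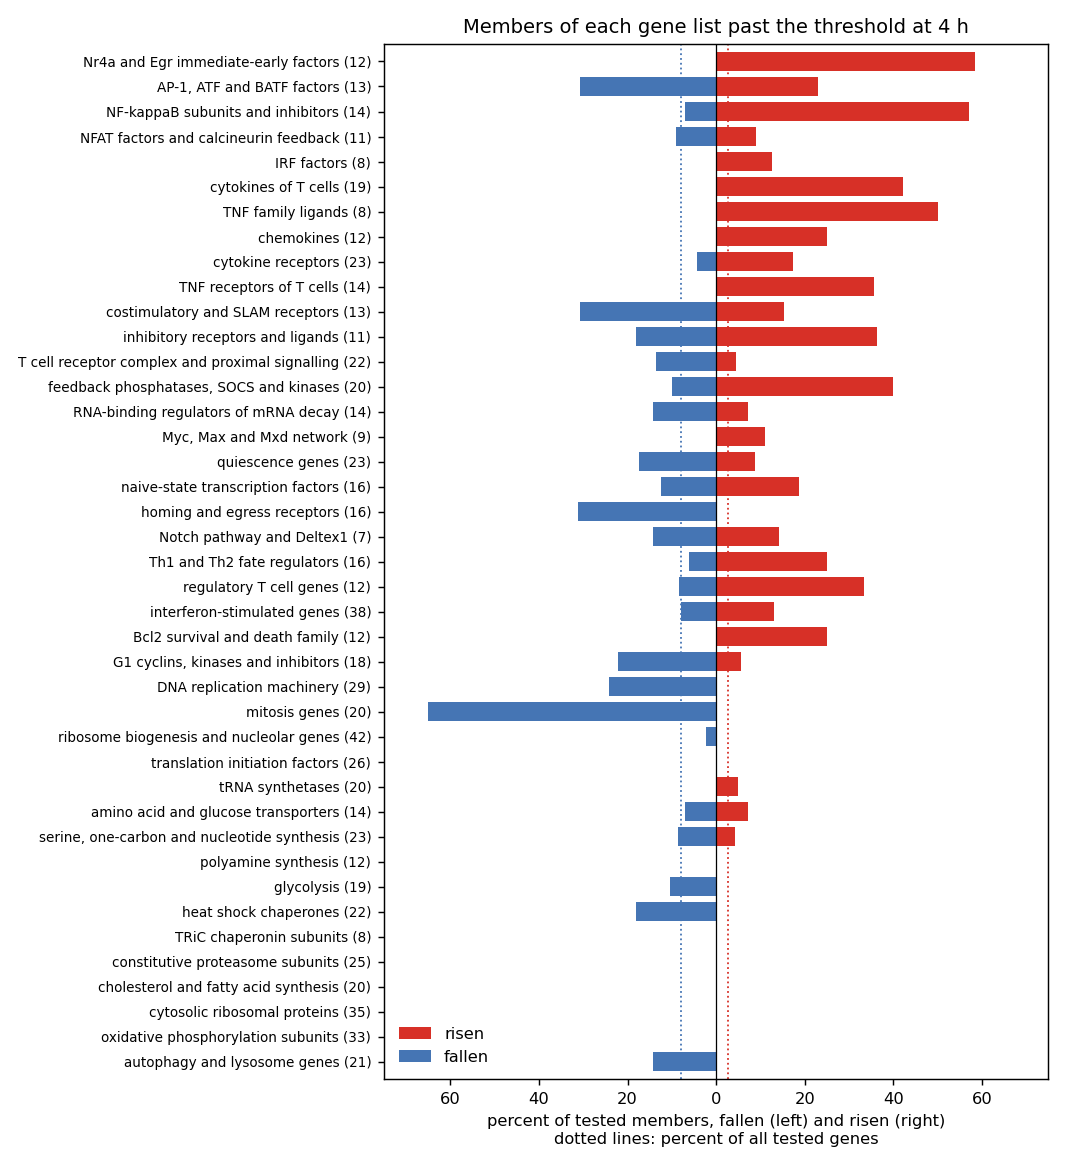
Share of the tested members of each list (number in brackets) that fell (blue, left) or rose (red, right), in percent, with dotted lines at the shares of all tested genes, 7.97% and 2.61%. Immediate-early, NF-κB, cytokine and TNF ligand lists have the longest red bars, the mitosis list the longest blue bar, and the lists of translation, proteasome and mitochondria have none. The lists were chosen with earlier results of these data known.

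Against 2.61% risen and 7.97% fallen of all tested genes, 5 of 38 interferon-stimulated genes tested rose, 3 fell and 30 were not called. Their median log2 change of 0.10 lay between 0.00 and 0.71 over the alternatives, highest with skewing as a factor, at 0.34 without the Th2 culture, 0.18 without the Th0 culture and 0.06 without resting library 2. Gbp2, a guanylate-binding protein induced by interferon-γ, was at 47.9 and 45.3 RPKM at rest and 1529, 2015 and 353 RPKM at 4 h (log2 change 4.45 ± 1.22 (SE), adjusted p = 0.0102). Gbp4 was at 49.5 and 50 RPKM at rest and 503, 668 and 117 RPKM at 4 h and did not pass (2.76 ± 1.08). For both genes the Th2 culture, which held anti-IFN-γ, was far below the other cultures and yet above both resting libraries. Gbp3 (2.56 ± 0.92), Ifi47 (2.18 ± 0.74) and Tgtp1 (3.12 ± 1.10), which has the near-identical copy Tgtp2, rose with the same order. Socs1, given above, is also on this list. Mx1, an antiviral GTPase, fell from 6.31 and 7.69 RPKM to 0.956, 0.872 and 0.900 RPKM (log2 change -2.41 ± 0.24 (SE), adjusted p = 1.41e-06) and Rsad2 from 42 and 41 RPKM to 14.6, 13.7 and 15.2 RPKM (-1.49 ± 0.41). Of the Ifitm genes, which encode interferon-induced membrane proteins, Ifitm2 fell from 17 and 16.9 RPKM to 8.64, 6.50 and 8.36 RPKM (log2 change -1.08 ± 0.34 (SE), adjusted p = 0.0231), with all cultures below both resting libraries. Ifitm3 was at 30.1 and 38.5 RPKM at rest and 9.81, 12.3 and 12.5 RPKM at 4 h, also without overlap, and did not pass (log2 change -1.53 ± 0.71 (SE), adjusted p = 0.112). Ifitm1 was at 5.21 and 4.34 RPKM at rest and 4.51, 6.88 and 5.43 RPKM at 4 h and did not pass (0.20 ± 0.32). Gbp2, Gbp3, Ifi47, Tgtp1, Rsad2 and Ifitm2 lost their calls without resting library 1 (log2 change 4.49, 2.51, 2.17, 3.07, -1.47 and -1.07). Gbp2, Gbp3, Ifi47, Tgtp1, Rsad2 and Ifitm2 lost their calls without resting library 2 (log2 change 4.41, 2.60, 2.18, 3.17, -1.5 and -1.08). Gbp3, Ifi47 and Tgtp1 lost their calls without the Th0 culture (log2 change 2.31, 2.02 and 2.91). Gbp3, Ifi47, Tgtp1 and Ifitm2 lost their calls without the Th1 culture (log2 change 2.24, 1.96, 2.83 and -0.95). Ifitm2 lost its call with median-of-ratios scaling (log2 change -1.0). Gbp3 and Tgtp1 lost their calls with no filter (log2 change 2.56 and 3.12). Rsad2 lost its call with a pseudocount of 0.1 (log2 change -1.51). Gbp4 passed without the Th2 culture (log2 change 3.53). Gbp4 and Ifitm3 passed in a fit of the 5 libraries alone (log2 change 2.76 and -1.53). Gbp4 and Ifitm3 passed with skewing as a factor (log2 change 3.69 and -1.47).

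Among 16 regulators of Th1 and Th2 fate, 4 rose and 1 fell. Gfi1, a repressor that favours Th2 cells, was at 10.5 and 9.43 RPKM at rest and 27.3, 30 and 74.2 RPKM at 4 h (1.93 ± 0.45), and Ccr8, a chemokine receptor of Th2 and regulatory T cells, at 2.19 and 2.65 RPKM at rest and 14.6, 27.3 and 62.7 RPKM at 4 h (log2 change 3.36 ± 0.54 (SE), adjusted p = 0.000165). Ecm1 rose (1.95 ± 0.38), Il4ra is given above, and Maf fell from 15.8 and 16.8 RPKM to 5.96, 6.81 and 6.43 RPKM (-1.29 ± 0.23). Gata3 was at 26.3 and 25.5 RPKM at rest and 30.6, 11 and 34.4 RPKM at 4 h and Tbx21, which encodes T-bet, at 7.49 and 7.46 RPKM at rest and 11.7, 16.5 and 9.70 RPKM at 4 h, without a call. Of 12 regulatory T cell genes 4 rose, Il2ra and Tnfrsf18 with Ikzf4 (1.82 ± 0.22) and Lrrc32 (1.80 ± 0.18), and Izumo1r fell. Foxp3, the factor that defines these cells, was at 23.2 and 22.2 RPKM at rest and 38.4, 32.6 and 37.3 RPKM at 4 h, without a call. In the Bcl2 family 3 of 12 rose: Bcl2a1b, a survival gene of a family of near-identical copies (1.80 ± 0.29), and the death genes Bax (1.29 ± 0.19) and Bcl2l11 (1.22 ± 0.34). Bcl2l11 lost its call without resting library 1 or without resting library 2 (log2 change 1.17 and 1.26).

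The largest rises outside the marker lists were led by Sema7a, a GPI-anchored semaphorin, at 1.03 and 1.21 RPKM at rest and 30.8, 46.3 and 96.8 RPKM at 4 h (log2 change 5.01 ± 0.46 (SE), adjusted p = 5.89e-07). Nr4a3 and Gbp2 came next, then Crem, a repressor of cyclic AMP responses, at 10.4 and 10.2 RPKM at rest and 123, 189 and 223 RPKM at 4 h (log2 change 4.01 ± 0.25 (SE), adjusted p = 5.43e-09), and Plagl1, a zinc finger factor, at 0.674 and 1.03 RPKM at rest and 16.1, 20.2 and 15.7 RPKM at 4 h (3.73 ± 0.29). Ramp3, a receptor activity-modifying protein, was at 2.98 and 3.48 RPKM at rest and 41.2, 44.1 and 49.2 RPKM at 4 h (3.60 ± 0.21) and at a mean of 2.18 RPKM at 24 h. Zfp948 (3.40 ± 0.21) and Gbp2b (3.32 ± 0.98) rose too. Of the 15 largest falls, 11 had a mean at 24 h under 1 RPKM. They included Adgre4 (-3.96 ± 0.17), Treml4 (-3.68 ± 0.18), Itgad (-3.66 ± 0.24), Pira2 (-3.62 ± 0.21) and Siglece (-3.47 ± 0.19), which are known from myeloid cells but stood on none of the marker lists, and Treml4 was at 30.9 and 29.5 RPKM at rest and 1.62, 1.70 and 2.46 RPKM at 4 h. Gbp2b lost its call without resting library 1, without resting library 2, without the Th0 culture or without the Th1 culture (log2 change 3.22, 3.42, 2.91 and 3.03).

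The cultures differed at 4 h, and with 1 library each there is no test of those differences. Among 8423 genes whose mean over the 3 cultures reached 5 RPKM, 334 lay at least 2-fold from the mean of the other 2 in any 1 culture. The Th2 culture stood 2-fold above the others for 161 genes and below for 119, the Th1 culture for 41 and 71, and the Th0 culture for 13 and 53. The largest differences below were Gm590 and Slc2a6 in the Th1 culture, Cxcl10 and Gbp8 in the Th2 culture and Ifng in the Th0 culture, at -3.44, -2.98, -3.02, -2.61 and -2.86 on the log2 scale. Those above were Ifng and Cxcl10 in Th1, Atf3 and Gm590 in Th2 and Klrb1f, an NK receptor family gene, in Th0, at 2.75, 2.53, 2.71, 2.42 and 2.35. Slc2a6, a glucose transporter relative, was at 1.35 and 0.807 RPKM at rest and at 7.77, 0.875 and 13.7 RPKM in the Th0, Th1 and Th2 cultures.

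The Th2 culture was the highest of the 3 for 149 of the 284 genes that rose (52.5%), against 37.4% of all genes tested, and the order Th0, Th1, Th2 from low to high was that of 96 (33.8%), against 19.5% of all. Among the lists, 12 of 12 Nr4a and Egr genes were highest in the Th2 culture, 10 of them in that order. The same was seen for 41 of 42 ribosome biogenesis genes, 40 in that order, 25 of 25 proteasome subunits, 20 in that order, and 8 of 8 TRiC subunits, 8 in that order. Of 35 ribosomal proteins, 33 were highest in Th2 but 16 were in that order. Against the resting mean, the ribosome biogenesis list had medians of -0.13, 0.14 and 0.79 in the Th0, Th1 and Th2 cultures, and Nop2, a nucleolar RNA methyltransferase, was at 23 and 23.5 RPKM at rest and 21.9, 26.7 and 53.5 RPKM at 4 h, without a call. The order was reversed for the quiescence genes, with medians of -0.10, -0.25 and -0.65. After median-of-ratios scaling of the 3 cultures, a setting chosen after seeing the data, 12 of 12, 41 of 42, 25 of 25, 8 of 8 and 34 of 35 were highest in Th2, and of all genes 41.2%. Red cell markers were also highest in the Th2 culture, for 25 of 30 genes, and their part was not tested. The RPKM values of all genes summed to 580573.5, 581800.6 and 633057.0 in the Th0, Th1 and Th2 cultures. What part this difference in sums had in the order of the cultures was not tested.

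**Figure D5:**
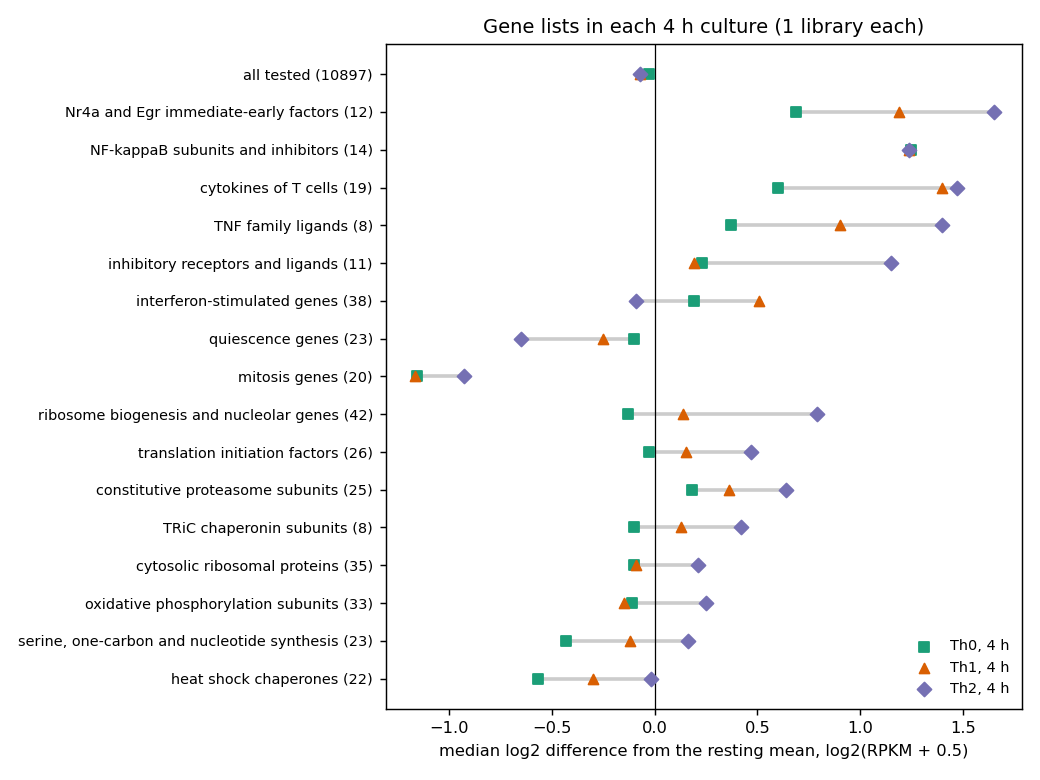
Median difference of each list from the mean of the resting libraries, on the log2(RPKM + 0.5) scale, in the Th0 (square), Th1 (triangle) and Th2 (diamond) culture at 4 h, with the number of genes in brackets. The NF-κB list is level across the cultures, from 1.24 to 1.25, whereas the ribosome biogenesis list runs from -0.13 in Th0 to 0.79 in Th2.

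Later means over the 3 cultures are given for some of the named genes, with no test. Nr4a3 had a mean of 195 RPKM at 8 h and 108 RPKM at 24 h, against 217 ± 100.1 RPKM (SD, n = 3) at 4 h. Crem went from 178 ± 50.9 to 81.7 and 36.5 RPKM, whereas Il2 went from 21.7 ± 15.7 to 42.8 and 142 RPKM and Il2ra from 80.4 ± 34.3 to 155 and 241 RPKM. Among genes that fell, Rrm2 was at a mean of 22.3 RPKM at 8 h and 52.8 RPKM at 24 h, and Lag3 is given above. Fos, at 13.4 and 6.03 RPKM, Hspa1b, at 9.33 and 1.44 RPKM, and Dtx1, at 2.12 and 3.35 RPKM, were below both resting libraries at both times.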

How the data were processed

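RNA sequencing of CD4+ T cells was analysed in the 20 libraries of the time course, of which 5 are described. The authors aligned reads with BWA (version not given in the sources used here) to GRCm38 per the submitters' processing notes and deposited RPKM values per gene symbol. All columns matched a sample by name. From the deposited RPKM, the mapped reads of each library were recovered from the steps between low values and ranged from 19645055 to 24357886 in the 5 libraries described.

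Values were set on the log2(RPKM + 0.5) scale, and genes whose mean over the 20 libraries reached 1 RPKM were tested. Time was a factor in limma 3.58.1 (R 4.3.3) with an intensity trend, so the spread of all times enters the error, and the contrast was the mean of the 3 cultures at 4 h minus the mean of the 2 resting libraries. Genes with a Benjamini-Hochberg adjusted p under 0.05 and at least a 2-fold change were called. The fit was tested on simulated data. Levels of 1 culture against the others had no test. Named genes were members of pathway and marker lists and the 15 largest changes each way whose cultures lay beyond both resting libraries, outside the marker lists of other spleen cells. The members and lists were chosen with earlier results of these data known. Promoters came from a RefSeq table of GRCm38.p6. Tables were handled in Python 3.11.15 with pandas 2.3.3, numpy 2.4.6 and scipy 1.17.1, and drawn with matplotlib 3.10.9. Other pseudocounts, filters, scalings, fits and each library left out were tried as 16 alternatives. Some items are not reported here.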

Additional observations from a re-analysis of the deposited data

Results flagged for a closer look

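For the 11 genes compared below, all taken from the genes named above, 1 culture lay above both resting libraries and another below both. The same held for Gm590, Gbp8 and Klrb1f, given with the largest differences between the cultures. Gm590 was at 1.52 and 2.04 RPKM at rest, 0.539 RPKM in Th1 and 15.1 RPKM in Th2. How often this pattern occurs among all tested genes was not counted, so it cannot be called unusual. The Th0 culture for Ctla4 and the Th2 culture for Nfkbia lay only just outside the resting libraries. With 1 library per culture, these differences were not tested. On the log2(RPKM + 0.5) scale, Ifng was higher in Th1 than in Th0 by 3.74. Ccr7 and S1pr1 were higher in Th1 than in Th2 by 0.65 and 0.35, and Klf2 was higher in Th0 than in Th2 by 0.76. Higher in Th2 than in Th0 were Cd40lg by 1.37, Nop2 by 1.27 and Ctla4 by 0.64. Higher in Th2 than in Th1 were Gata3 by 1.60, Cd8a by 1.29, Hbb-bs by 0.75 and Nfkbia by 0.15.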

How the results depend on the processing

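With the filter raised to a mean of 5 RPKM, fewer genes were tested, and 646 changed and 425 fell. Quantile normalization gave 551 rises and 716 falls, so 43.5% of called genes rose against 24.7%, and the cause was not tested. Without a filter, 569 genes differed in 1 culture in place of 334. Leaving out 1 library gave 961 to 1194 changed genes, 220 to 294 rises and 728 to 920 falls. Of 147 genes named as called, 107 passed under every alternative in which they were tested. The skewing condition as a factor turned the change of Ifng to -0.30, of Klf2 to 0.46, of Nfkbia to 0.02 and of Hbb-bs to 0.05. Nfkbia was at 0.05 with median-of-ratios and 0.03 with upper-quartile scaling, and S1pr1 at -0.07 with quantile normalization. With 1 library left out, Klf2 ranged from -0.36 to 0.02 (sign turned without Th2), Gata3 from -0.48 to 0.32 (without Th1), S1pr1 from -0.10 to 0.07 (without Th1 or, at -0.0034, resting library 1), and Nfkbia turned to 0.01 without Th1 and 0.0028 without resting library 2. None of these genes was called. Of 656 list medians under the alternatives, 23 moved by more than the median SE of their genes. No paired analysis was possible because only the resting libraries carry replicate numbers.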
